A study of Homo sapiens with 12 samples.

Results

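Lymphocyte homing was followed at 9 genes: the chemokine receptor genes CXCR4, CCR4, CCR7 and CCR9, the adhesion genes SELPLG and ITGA4, and the lipid and proton receptor genes S1PR1, GPR183 and GPR65. A region belonged to a gene when its summit lay in the gene's hg38 span or within 50 kb of it. By this rule 33 of the 11908 regions called on the autosomes and sex chromosomes were members, and they fell at 6 of the 9 genes, out of 20037 protein-coding genes in all. The rule uses no measured value, but the 9 genes were chosen with earlier results of these data known. The regions came from ChIP-seq of the glucocorticoid receptor (NR3C1) and of STAT5B in the human cell line SUPT-1, which is derived from a T-lymphoblastic malignancy. Region lists hold no expression values, so the identity of the line was not checked against markers. All cells carried a doxycycline-inducible construct, selected with puromycin, and had been given doxycycline. The 8 ChIP libraries covered each antibody in 4 cultures, namely the STAT5B N642H line with prednisolone, the STAT5B WT line with prednisolone, the untreated N642H line and the untreated WT line. N642H is an activating STAT5B mutant, and WT is overexpressed wild-type STAT5B. Treated cells had received 250 µg per ml prednisolone, a synthetic glucocorticoid, for 16 hours. Each group held 1 library, so no difference below has a replicate check or a test. The labels do not say whether the STAT5B antibody tells the introduced protein from the cell's own, nor how much of either was present.

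Lymphocytes find their tissues through receptors that read soluble guidance cues and through adhesion molecules that hold them on the vessel wall. Chemokine receptors, the sphingosine-1-phosphate receptor S1PR1 and the oxysterol receptor GPR183 signal through G proteins and steer the cell, while selectin ligands and integrins slow and arrest it. NR3C1 is a nuclear receptor that binds DNA once it has bound a glucocorticoid, and STAT5B is a transcription factor activated by cytokine receptors such as that for interleukin 7. Glucocorticoids are known to raise CXCR4 in human T cells.

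The lists were of very unequal length. With prednisolone NR3C1 had 2888 regions in the N642H line and 995 in the WT line, and without it 2 in each line. STAT5B had 446 and 766 regions with prednisolone in the N642H and WT lines, and 4542 and 2267 without. The fold given for a region is the authors' ratio of ChIP pileup (overlapping fragments at the summit) to the local background, with 1 added to each. It is therefore lower than the plain ratio of the fragments and background printed below, most so where the background is low. The −log10 q is their score for the region. Neither fold nor −log10 q is normalised between libraries. A value of one list beside that of another thus describes the lists and measures no change. Pileup and background were recovered from these values in the 6 long lists. With prednisolone in the WT line the recovered pileups came in steps of 0.894 for NR3C1 and 0.849 for STAT5B, so they need not be whole numbers. The lowest pileup that was called in a list lay between 6 and 8 fragments. Where the local background was high more was needed, so a gene without a region may still have been bound. ChIP averages over a culture, so binding in fewer cells and weaker binding per cell cannot be told apart.

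Sequence was at hand only for 250 bases before and 50 after RefSeq start sites (GRCh38.p14), which covered 10 start sites of 7 of the 9 genes. CCR7 and SELPLG were not among them. Of the stretches of 250 bases before a start, 4 that a called region reached into are printed to show what DNA lay under it, and 1 at CCR9 is printed for its motif. Another CXCR4 stretch, before the start at 136117869, had 213 of its bases in a STAT5B region of the untreated N642H line and is not printed. The first is upstream of the outermost CXCR4 start, at chr2:136118150-136118399 on the minus strand, with capitals inside the STAT5B region of the untreated N642H line. The next precedes a CXCR4 start inside the gene, at chr2:136116236-136116485 on the minus strand, and lies wholly within another STAT5B region of that library. The ITGA4 stretch is chr2:181457136-181457385 on the plus strand, with capitals for the same library. The LZTFL1 stretch, at chr3:45915725-45915974 on the minus strand, is shown because a site within 50 kb of CCR9 lies there, and its capitals were inside regions of 3 lists. The CCR9 stretch, at chr3:45893967-45894216 on the plus strand, held no region in any list, and its capitals mark a STAT5 motif.
CXCR4 outermost start: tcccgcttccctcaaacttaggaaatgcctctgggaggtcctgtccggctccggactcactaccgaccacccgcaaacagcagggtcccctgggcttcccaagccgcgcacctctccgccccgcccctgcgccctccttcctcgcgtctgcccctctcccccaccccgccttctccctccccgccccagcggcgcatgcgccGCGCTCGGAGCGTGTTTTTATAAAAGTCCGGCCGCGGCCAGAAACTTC
CXCR4 start inside the gene: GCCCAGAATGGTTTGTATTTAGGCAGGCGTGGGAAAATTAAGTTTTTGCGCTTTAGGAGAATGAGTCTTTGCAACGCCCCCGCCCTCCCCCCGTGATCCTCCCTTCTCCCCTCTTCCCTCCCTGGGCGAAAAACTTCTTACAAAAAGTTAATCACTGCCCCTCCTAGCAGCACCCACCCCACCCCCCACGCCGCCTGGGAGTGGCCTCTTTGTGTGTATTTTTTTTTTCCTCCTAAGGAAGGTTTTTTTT
ITGA4: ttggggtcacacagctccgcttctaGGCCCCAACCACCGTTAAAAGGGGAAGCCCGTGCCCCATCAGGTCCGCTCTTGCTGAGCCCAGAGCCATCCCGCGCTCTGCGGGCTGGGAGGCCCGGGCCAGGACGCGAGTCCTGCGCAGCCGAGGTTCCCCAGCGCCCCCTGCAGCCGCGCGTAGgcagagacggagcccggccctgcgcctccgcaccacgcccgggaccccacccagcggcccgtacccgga
LZTFL1 beside CCR9: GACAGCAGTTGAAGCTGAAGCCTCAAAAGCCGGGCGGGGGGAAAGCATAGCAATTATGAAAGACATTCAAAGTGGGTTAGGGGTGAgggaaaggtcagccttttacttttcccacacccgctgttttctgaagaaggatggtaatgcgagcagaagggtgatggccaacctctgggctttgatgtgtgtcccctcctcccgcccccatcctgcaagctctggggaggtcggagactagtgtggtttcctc
CCR9: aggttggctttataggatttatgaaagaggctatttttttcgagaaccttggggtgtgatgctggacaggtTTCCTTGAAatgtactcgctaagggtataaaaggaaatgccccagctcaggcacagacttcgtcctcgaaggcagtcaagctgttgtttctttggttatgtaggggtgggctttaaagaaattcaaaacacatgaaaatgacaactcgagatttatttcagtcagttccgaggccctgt
The STAT5 motif TTCNNNGAA reads the same on both strands and occurred in 6.81% of 22078 start-site windows of protein-coding genes. Among the 10 windows of the homing genes it occurred only in this CCR9 stretch, at position -179 from the start, where no STAT5B region was called. The glucocorticoid response element, AGAACA and TGTTCT with 3 free bases between them, was searched on both strands with up to 2 mismatches in its 12 fixed letters. It occurred in 0.956% of all windows and in none of the 10. The LZTFL1 stretch held neither. These letters are thus absent from the windows at CXCR4 and ITGA4 that carried STAT5B regions. The strongest sites lay outside the windows, and their sequence was not analysed here.

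With prednisolone NR3C1 had regions at 6 of the 9 genes in the N642H line (CXCR4, CCR7, CCR9, SELPLG, ITGA4 and GPR65) and at 2 in the WT line (CXCR4 and CCR9). Of all 20037 protein-coding genes, 16.7% and 6.44% had such a region in these lists. Without prednisolone the 9 genes had none in either line, where 0.0449% of all genes had one. STAT5B with prednisolone had regions at 2 genes in the N642H line (CXCR4 and SELPLG), against a background of 4.84% of genes, and at 2 in the WT line (CXCR4 and ITGA4), against 9.61%. In untreated cells it had regions at 5 genes in the N642H line (CXCR4, CCR9, SELPLG, ITGA4 and GPR65), where 39.4% of all genes had one. In untreated WT cells it had regions at 2 genes (CXCR4 and ITGA4), against 23.2%. The share of the 9 genes was above that of all genes in each treated list and in untreated STAT5B of the N642H line, and near it in untreated STAT5B of the WT line. The 9 genes were chosen with earlier results of these data known, so these shares are a description only. When each of the 6 long lists was cut to its 446 strongest regions, NR3C1 reached 1 of these genes in either line, CXCR4.

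**Figure D1:**
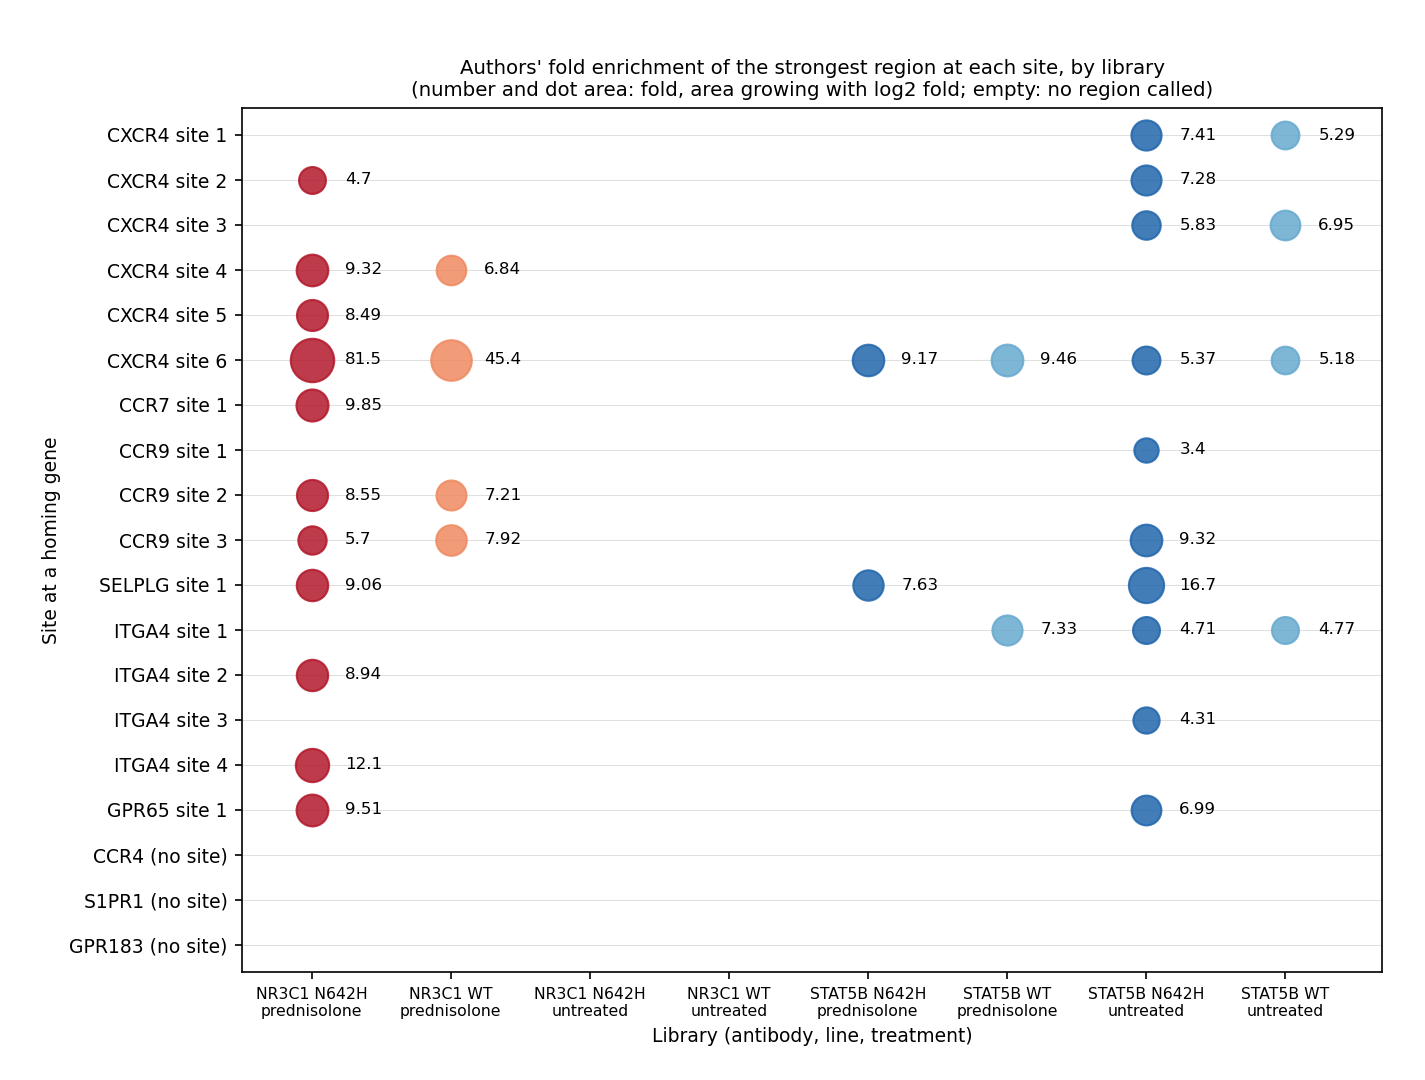
Rows are the 16 sites formed by merging overlapping regions at the homing genes, numbered by coordinate within a gene, and columns are the 8 libraries; the number and the dot area give the authors' fold of the strongest region, with area growing as log2 fold. CXCR4 site 6 is the row with dots in 6 libraries, CCR4, S1PR1 and GPR183 have none, and both untreated NR3C1 columns are empty.

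The 33 regions merged into 16 sites. NR3C1 alone was called at 6 sites, STAT5B alone at 5 and both at 5, counting all lists. CXCR4 had 6 sites, ITGA4 had 4, CCR9 had 3, and CCR7, SELPLG and GPR65 had 1 each. No member region had a local background of 10 times the genome background or more. A total of 13 regions had their summit inside a listed gene.

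CXCR4 (gene ID 7852, chromosome 2, 136114349 to 136118149, minus strand) encodes the receptor for CXCL12, which holds lymphoid progenitors and leukaemia cells in the bone marrow. It had the strongest NR3C1 region of the 9 genes in both lines. The strongest NR3C1 region, called the distal site here, had its summit 18254 bp upstream of the outermost start in the N642H line (136136121 to 136137177) and 18274 bp upstream in the WT line (136136154 to 136136866). In the N642H line its fold was 81.5 (−log10 q 326), with 175 fragments over a background of 1.16. In the WT line its fold was 45.4 (−log10 q 145), with 100.2 fragments over 1.23. It ranked 24 of 2888 and 16 of 995 by −log10 q. Each line thus had it near the top of its own list. No other protein-coding gene lay within 50 kb of CXCR4.

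STAT5B was called at the distal site in all 4 of its lists. With prednisolone its region had a fold of 9.17 in the N642H line (136136358 to 136136468, 13 fragments over a background of 0.527) and 9.46 in the WT line (136136337 to 136136470, 19.5 over 1.17). Without prednisolone it had a fold of 5.37 in the N642H line (136136590 to 136136967, 29 fragments over 4.59) and 5.18 in the WT line (136136677 to 136136828, 14 over 1.90). The regions with and without prednisolone did not overlap in either line. Their summits lay 409 bp apart in the N642H line and 351 bp apart in the WT line, with gaps of 121 and 206 bp between the regions. With prednisolone the STAT5B summit was 20 bp (N642H) and 12 bp (WT) from the NR3C1 summit of the same line. Without it, the STAT5B summit lay 429 bp (N642H) and 363 bp (WT) from that NR3C1 summit, on the side away from CXCR4, and still inside the wide NR3C1 region.

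**Figure D2:**
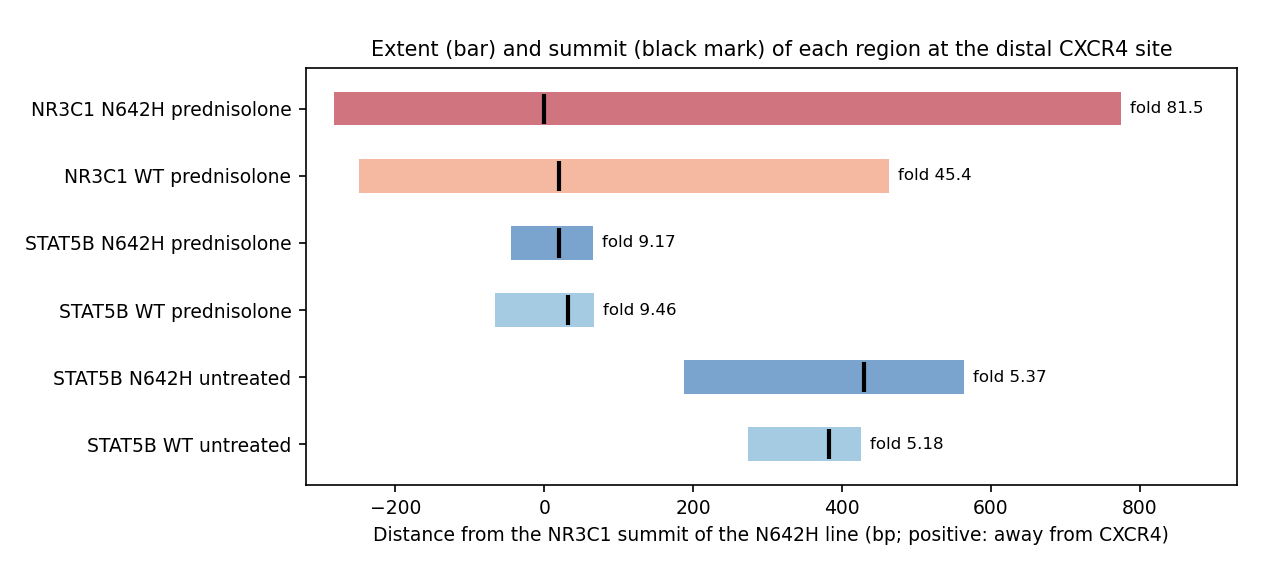
Bars give the extent of the region called in each of 6 libraries at the distal CXCR4 site and black marks its summit, along the distance in bp from the NR3C1 summit of the N642H line; each bar is labelled with its fold. The STAT5B summits with prednisolone sit 20 bp and 12 bp from the NR3C1 summit of their own line, and those without it 429 bp and 363 bp away.

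Summit distances this large were few where STAT5B and NR3C1 regions overlapped, but narrow regions leave little room for them. The median NR3C1 region was 218 bp wide in the N642H line and 172 bp in the WT line. At the distal site the NR3C1 regions were 1057 bp (N642H) and 713 bp (WT) wide. Regions of like width were not compared, so the counts below do not set the distal site apart. Where a STAT5B region overlapped an NR3C1 region of its line anywhere in the genome, the median distance between summits was 46 bp with prednisolone and 41 bp without in the N642H line (239 and 805 regions). In the WT line it was 42 bp with and 56 bp without (141 and 163 regions). Distances of at least 300 bp occurred in 18 of the 805 untreated N642H regions and in 4 of the 163 untreated WT regions. Some treated STAT5B regions overlapped no untreated one but had an untreated STAT5B summit within 1000 bp. There were 9 among 446 in the N642H line, of which 2 lay at NR3C1 regions. The WT line had 63 among 766, of which 6 did. The 446 and 766 include 314 and 454 regions that overlapped an untreated one and could not be counted. Among the rest the pattern was thus more common, above all in the WT line. In the N642H line the local background was 0.527 at the treated summit, against 4.59 at the untreated one, and the part of background, fragment length and depth in the shift was not tested.

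Of the other CXCR4 sites, those upstream were called for NR3C1 and those inside the gene mostly for STAT5B. NR3C1 had a site 13608 bp upstream of the outermost start in the N642H line (fold 9.32, 19 fragments) and 13650 bp upstream in the WT line (fold 6.84, 12.5 fragments). In the N642H line it had a further one 16169 bp upstream (fold 8.49, 19 fragments). Inside the gene it had a single region, in the N642H line, at 136116987 to 136117123 (fold 4.70, 9 fragments), which ranked 2868 of 2888 and overlapped untreated STAT5B binding of that line.

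Inside the gene STAT5B regions were called in untreated cells and not with prednisolone. In the untreated N642H line there were 3, at 136116210 to 136116553 (fold 7.41, 20 fragments), 136116781 to 136117235 (fold 7.28, 19 fragments) and 136117907 to 136118197 (fold 5.83, 15 fragments). The untreated WT line had 2, at 136116497 to 136116593 (fold 5.29, 10 fragments) and 136118060 to 136118153 (fold 6.95, 13 fragments). Both WT regions overlapped N642H regions, those given first and last. The N642H region over the outermost start had its summit 77 bp and the WT region 48 bp inside the transcript, and its bases before the start are the capitals printed above. The treated lists were shorter, and the distal site was the only treated STAT5B region within 50 kb of CXCR4 in either line.

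**Figure D3:**
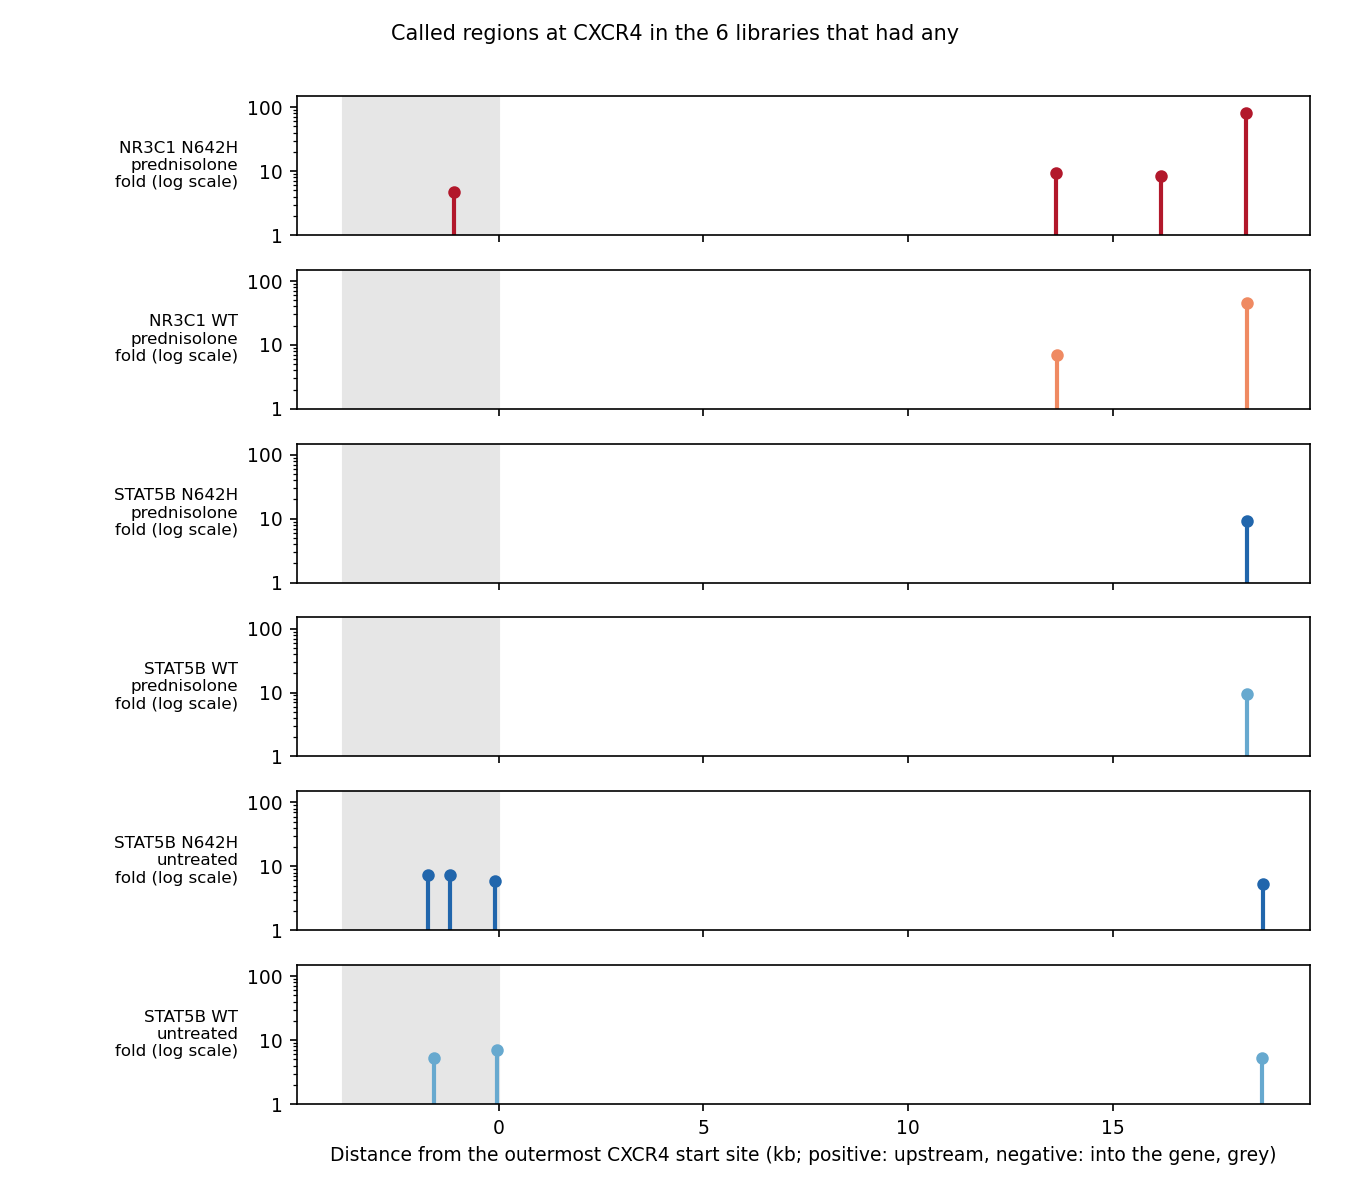
Each panel is 1 of the 6 libraries with a region at CXCR4; the horizontal axis gives the summit's distance in kb from the outermost start (positive upstream, negative into the gene, which is grey) and the vertical axis the fold on a log scale. NR3C1 reaches 81.5 and 45.4 at the distal site, and untreated STAT5B is the antibody with several regions inside the gene.

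CCR9 (gene ID 10803, chromosome 3, 45886064 to 45903174, plus strand) encodes the receptor for CCL25, a cue of the thymus and the small intestine. It lies within the span of LZTFL1, a gene of ciliary trafficking. NR3C1 had 2 sites in each line. The site inside LZTFL1, 6342 bp before CCR9 in the N642H line (fold 8.55, 23 fragments) and 6307 bp before it in the WT line (fold 7.21, 13.4 fragments), had no STAT5B region. The other site lay 12793 bp beyond CCR9 in the N642H line (fold 5.70, 15 fragments) and 12756 bp beyond it in the WT line (fold 7.92, 13.4 fragments). Here the WT line had the higher fold and the N642H line the larger pileup, so the order depends on the measure.

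That second site was also the strongest CCR9 site of STAT5B, in untreated N642H cells (45915719 to 45916260, fold 9.32, 23 fragments, rank 403 of 4542). STAT5B was not called there in the untreated WT line or with prednisolone. All 3 summits lay close to the LZTFL1 start printed above, at 243 bp (NR3C1, N642H), 206 bp (NR3C1, WT) and 192 bp (STAT5B, untreated N642H) before it. The site can therefore be counted for LZTFL1 as well. A weak STAT5B region of the untreated N642H line lay 15719 bp before CCR9 (fold 3.40, −log10 q 2.92).

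CCR7 (gene ID 1236, chromosome 17, 40553769 to 40565472) encodes the receptor for CCL19 and CCL21, which leads T cells into lymph nodes. It had 1 region, of NR3C1 in the N642H line, 13048 bp from the gene (40540598 to 40540800, fold 9.85, 18 fragments, rank 1153 of 2888). The nearest WT-line NR3C1 region lay 445408 bp away, and no STAT5B list had a region within 50 kb. CCR4 (gene ID 1233, chromosome 3, 32951644 to 32956349), the receptor for CCL17 and CCL22 on skin-homing and helper T cells, had no region in any list. The nearest NR3C1 regions lay 108857 bp away in the N642H line (fold 34.1) and 108796 bp away in the WT line (fold 12.6), inside TRIM71.

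SELPLG (gene ID 6404, chromosome 12, 108621895 to 108633894) encodes PSGL-1, the selectin ligand on which leukocytes roll. It carried 1 site, inside the gene, and all 3 of its lists were from the N642H line. STAT5B had a fold of 7.63 there with prednisolone (108628502 to 108628632, 9 fragments over 0.310) and 16.7 without (108628429 to 108628701, 32 fragments over 0.977). The untreated region ranked 47 of 4542, the highest rank of any STAT5B region at these genes, and the treated one 199 of 446. NR3C1 with prednisolone had a fold of 9.06 (14 fragments, rank 1440 of 2888). The STAT5B summits lay 28 bp (prednisolone) and 25 bp (untreated) from that of NR3C1. In the WT line the nearest region lay 94676 bp away for NR3C1, inside CORO1C. For STAT5B in that line it lay 12718665 bp away with prednisolone and 418642 bp away without.

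ITGA4 (gene ID 3676, chromosome 2, 181457205 to 181538940, plus strand) encodes the alpha 4 chain of the integrins VLA-4 and alpha 4 beta 7, which bind VCAM-1 and the gut addressin MAdCAM-1. Its 4 sites never held both antibodies. NR3C1 was called in the N642H line alone, 14455 bp downstream of the start inside the gene (181471737 to 181471955, fold 12.1, 33 fragments, rank 598 of 2888) and 40641 bp before the gene (fold 8.94, 19 fragments). STAT5B had a site 45892 to 46101 bp before the gene. There its fold was 7.33 with prednisolone in the WT line (12.7 fragments), and none was called with prednisolone in the N642H line. In untreated cells its fold there was 4.71 in the N642H line (21 fragments) and 4.77 in the WT line (10 fragments). The treated WT region (181411245 to 181411336) overlapped the untreated region of its line (181411053 to 181411256) only at their edges. Their summits lay 209 bp apart. Across lists the pileup was largest in untreated N642H cells and the fold in treated WT cells. At the ITGA4 start STAT5B had a weak region in untreated N642H cells only among the 8 lists (181457161 to 181457316, fold 4.31, 13 fragments over 2.25, rank 4289 of 4542), whose bases are printed above.

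GPR65 (gene ID 8477, chromosome 14, 88005135 to 88014811, plus strand) encodes a proton-sensing receptor that was first described in mouse as a T-cell death-associated gene. It had 1 site, 1328 bp downstream of the start for NR3C1 and 1372 bp for STAT5B, in the N642H line. NR3C1 with prednisolone had a fold of 9.51 (88006336 to 88006549, 20 fragments, rank 1110 of 2888). Untreated STAT5B had a fold of 6.99 (88006409 to 88006606, 17 fragments, rank 1400 of 4542). The summits lay 44 bp apart. No treated STAT5B region and no WT-line region of either antibody was called within 50 kb, and the nearest NR3C1 region of the WT line lay 590886 bp away.

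S1PR1 (gene ID 1901, chromosome 1, 101236899 to 101242313), which leads lymphocytes out of lymphoid tissue, had no region in any list. The nearest was a weak STAT5B region of untreated N642H cells 67142 bp away (fold 4.53), and the nearest NR3C1 region was 124655 bp away in the N642H line (fold 6.25). GPR183 (gene ID 1880, chromosome 13, 99294539 to 99307399), a receptor for oxysterols that positions immune cells in lymphoid tissue, also had none, although it lies inside the span of UBAC2. The nearest NR3C1 regions were 112987 bp away in the N642H line (fold 13.8) and 112929 bp away in the WT line (fold 6.76). In the WT line STAT5B had its nearest region 113028 bp away with prednisolone (fold 8.14) and 112967 bp away without (fold 7.32). The nearest region of any list was a STAT5B region of untreated N642H cells, 89659 bp away inside UBAC2 (fold 7.88).

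**Figure D4:**
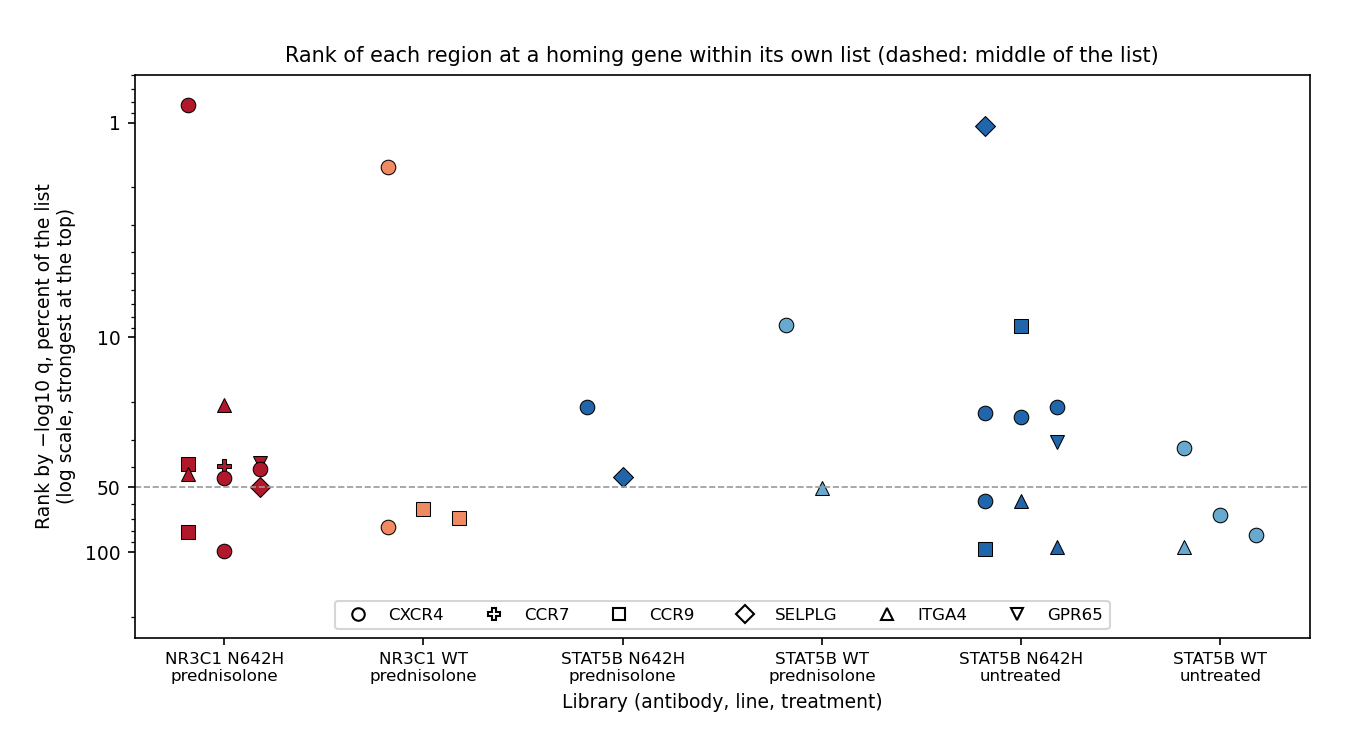
Each symbol is 1 of the 33 regions, placed by its rank in its own list as a percent of the list (log scale, strongest at the top; dashed line, 50); shape gives the gene and columns the 6 long lists. CXCR4 for NR3C1 in both lines and SELPLG for untreated STAT5B in the N642H line stand highest, and 13 of the 33 regions lie in the lower 50% of their lists.

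Between the lines, 4 of 11 NR3C1 regions of the N642H line at these genes overlapped a WT region, where 30.7% of all N642H regions did, and 4 of 4 WT regions overlapped an N642H region, where 89.9% of all did. These shares are near those of all regions. Cut to its 995 strongest regions, the length of the WT list, the N642H list kept CXCR4 and ITGA4, and the WT list had CXCR4 and CCR9. The larger number of genes in the N642H line was thus not seen at equal list length. For untreated STAT5B, 4 of 10 N642H regions overlapped a WT region (29.8% of all did) and 4 of 4 WT regions overlapped an N642H region (61.4% of all did). At the WT length of 2267 regions the N642H list kept 4 genes (CXCR4, CCR9, SELPLG and GPR65), against 2 in the WT list (CXCR4 and ITGA4). The share of all genes reached by the cut N642H list was not computed, so the 4 against 2 is no result about the homing genes. With prednisolone the distal CXCR4 site was the STAT5B region shared by the lines, 1 of 2 in the N642H line (41% of all) and 1 of 2 in the WT line (23.8% of all).

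Between treatments, 1 of 2 treated STAT5B regions of the N642H line, at SELPLG, overlapped an untreated one (70.4% of all did), as did 1 of 2 in the WT line, at ITGA4 (59.3% of all did). In the other direction 1 of 10 untreated N642H regions was called again (6.87% of all) and 1 of 4 untreated WT regions (19.9% of all). STAT5B overlapped NR3C1 with prednisolone in 2 of 2 regions of the N642H line (53.6% of all did) and in 1 of 2 of the WT line (18.4% of all did). Of the NR3C1 regions, 2 of 11 in the N642H line (7.76% of all) and 1 of 4 in the WT line (14.1% of all) overlapped treated STAT5B. Of the untreated STAT5B regions, 5 of 10 in the N642H line lay at NR3C1 regions that were called with prednisolone (17.7% of all did), at CXCR4 (2 regions), CCR9, SELPLG and GPR65. In the WT line 1 of 4 did (7.19% of all did), at the distal CXCR4 site. Conversely, 5 of 11 NR3C1 regions of the N642H line (27.8% of all) and 1 of 4 of the WT line (16.3% of all) overlapped untreated STAT5B. The counts are too small to set these shares apart from the background.

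The 50 kb limit had regions on either side of it. The farthest members were the STAT5B regions at ITGA4, 45892 to 46101 bp away. The nearest regions outside were NR3C1 ones at ITGA4, 52936 bp away in the N642H line (fold 4.98) and 52950 bp away in the WT line (fold 7.14).

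Other genes of homing were taken as 4 lists, chosen with earlier results of these data known. The shares of all genes to read them against, in the N642H and WT lines, are 16.7% and 6.44% for NR3C1 with prednisolone, 4.84% and 9.61% for treated STAT5B, and 39.4% and 23.2% for untreated STAT5B. Among 19 other chemokine receptors NR3C1 had regions at 3 (N642H) and 1 (WT) with prednisolone, and STAT5B at 0 and 0 with prednisolone and at 2 and 1 without. The NR3C1 counts are close to the shares of all genes and the STAT5B counts are below them. CXCR6 and XCR1 were counted in the N642H line from the same region. CXCR6 was linked only through sites it shared with the CCR9 neighbourhood or FYCO1. CCR10 had a fold of 9.64 for NR3C1 in the N642H line, 23252 bp away. Among 15 other positioning receptors the numbers were 5 and 3 for NR3C1, 2 and 2 for treated STAT5B, and 9 and 6 for untreated STAT5B, in the N642H and WT lines. Each of these is above the share of all genes, except that treated STAT5B in the WT line is near it. The counts are too small to set these shares apart from the background. S1PR4, a sphingosine-1-phosphate receptor of blood cells, had NR3C1 23484 bp away with fold 41.7 (N642H) and 9.86 (WT, 23489 bp), and treated STAT5B at the same place with fold 10.2 (N642H) and 7.33 (WT). Untreated STAT5B was called there in the N642H line too, with fold 12.7. LPAR6, a lysophosphatidic acid receptor gene, held an internal NR3C1 region of fold 29.7 in the N642H line, GPR4 one 26851 bp away of fold 15.0 (N642H) and 19.3 (WT), and P2RY8 internal ones of fold 15.1 (N642H) and 8.71 (WT). A region linked to a gene of the 4 lists may also lie in or near other genes. Apart from those at CXCR6 and XCR1, such genes are not given here.

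Among 17 other adhesion genes NR3C1 had regions at 7 (N642H) and 1 (WT), treated STAT5B at 0 and 3, and untreated STAT5B at 7 and 5. The 1 for NR3C1 in the WT line and the 7 for untreated STAT5B in the N642H line are near the shares of all genes. The 7 for NR3C1 in the N642H line and the 3 for treated STAT5B in the WT line are above them. The 0 for treated STAT5B in the N642H line is below, and the 5 for untreated STAT5B in the WT line slightly above. ITGA5, the fibronectin receptor chain, had a site 35873 bp away for NR3C1 in the N642H line (fold 7.88) and 36018 bp away in the WT line (fold 5.42). Treated STAT5B had fold 10.5 there in the WT line and no region in the N642H line. Untreated STAT5B had fold 11.99 (N642H) and 5.18 (WT). ITGAL, ITGAE and ITGA6 had NR3C1 regions of fold 9.06, 9.54 and 8.07 in the N642H line. These lay 11686, 3481 and 1258 bp from the genes. Among 24 genes that signal downstream of homing receptors NR3C1 had regions at 7 (N642H) and 0 (WT), treated STAT5B at 3 and 3, and untreated STAT5B at 17 and 13. These lie above the shares of all genes except for NR3C1 in the WT line, which is below, and treated STAT5B in the WT line, which is near. Both this list and that of the adhesion genes were chosen with earlier results of these data known, so their shares are a description only. GRK3, a kinase that desensitises G protein-coupled receptors, had a site 7625 bp away with an NR3C1 fold of 12.5 in the N642H line, and untreated STAT5B of fold 14.7 (N642H) and 7.42 (WT). RASSF5, an activator of integrin adhesion, had STAT5B at one site in all 4 lists, 23006 to 23065 bp from the gene. The fold there was 7.07 (N642H) and 5.34 (WT) with prednisolone and 8.82 (N642H) and 8.48 (WT) without. RGS14 and ARRB2 had untreated STAT5B regions of fold 8.26 and 9.62 in the N642H line, 6163 and 6493 bp from the genes. At the same places the WT line had untreated STAT5B regions of fold 6.24 and 6.16. RGS14 also had treated STAT5B of fold 6.49 there in the N642H line.

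Genes most like a member were named by the Euclidean distance over the 8 lists of log2(1 + fold) of the strongest region within 50 kb, for members with regions in at least 4 lists. CXCR4 was nearest to LOC107985876 (distance 0.41), with NR3C1 folds of 75.2 (N642H) and 40.9 (WT), and to ANAPC16 and ASCC1 (0.45 each), which share their regions and had folds of 77.9 (N642H) and 43.3 (WT). ITGA4 was nearest to LIMS1 (0.36), FOXO6 (0.47) and SLC35F3 (0.55), with NR3C1 folds of 14.1, 9.26 and 15.0 in the N642H line. The WT line had no NR3C1 region at any of them.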

How the data were processed

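NR3C1 and STAT5B ChIP-seq libraries of SUPT-1 cells were used as deposited, as 1 peak list per library. The submitters' processing notes name BWA, MACS2, deepTools and build hg38, and the versions and the control given to the caller are not given in the sources used here. For each peak the authors deposited a score, a fold, −log10 p, −log10 q and the offset of the summit. The score was 10 times the −log10 q cut to a whole number. The fold was the ratio of pileup to local background, with 1 added to each. In the 6 long lists the lowest −log10 q was just above 2. The 4 input libraries were not analysed here.

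Regions of autosomes and sex chromosomes were linked to genes of a RefSeq table (GRCh38.p14, 20037 protein-coding genes) by summit, within 50 kb. Overlap meant 1 shared bp or more. In the 6 lists with more than 50 regions, pileup and background were solved from the deposited fold, with a pseudocount of 1, and from −log10 p under a Poisson law, within 0.002 of the deposited −log10 p. This succeeded for 99.1% of NR3C1 regions of the N642H line and 100% elsewhere. As genome background served the lowest value found in 5 or more regions, between 0.310 and 0.977 fragments, and high background meant at least 10 times it. The 2 untreated NR3C1 lists were too short for this. The solver, the overlaps and the linking were tested on simulated data. Analyses used Python 3.11.15, NumPy 2.4.6, SciPy 1.17.1 and pandas 2.3.3.

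The 9 genes and the 4 further lists were chosen with earlier results of these data known. The genes named are all members, the gene holding or nearest to each site, up to 4 genes with the strongest regions of each further list, and the 3 genes most like a member. TRIM71, CORO1C, UBAC2 and FYCO1, outside this rule, were named after their values were seen. With 1 library per group there was no test and no replicate spread. Windows of 20 and 100 kb, the gene span, stricter thresholds, equal list lengths and other overlap rules were tried.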

Additional observations from a re-analysis of the deposited data

How the results depend on the processing

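No paired analysis was possible because each group held 1 library and no test was made. Of 152 recomputed counts, 117 stayed within 1.5 times the value in the report and 35 did not, and counts this small pass that factor with few regions. The 117 include all counts of the 2 untreated NR3C1 lists, which hold 2 regions each and had no member under any setting. They also include the counts without high-background regions, which could not change because no member region was one. The 117 therefore overstate how stable the counts were. Within 100 kb NR3C1 had 17 regions in the N642H line and regions at 4 genes in the WT line. Within 20 kb STAT5B reached 1 gene with 1 region in the treated WT line and 1 gene in the untreated WT line. In the gene span alone NR3C1 had 4 regions in the N642H line and 0 regions at 0 genes in the WT line. STAT5B then had 1 region at 1 gene (treated N642H), 0 at 0 (treated WT), 6 regions (untreated N642H) and 2 regions at 1 gene (untreated WT). At −log10 q of at least 5, untreated STAT5B in the WT line had 1 region at 1 gene, and at fold of at least 5 it reached 1 gene. With the 6 long lists cut to 446 regions NR3C1 had 1 region at 1 gene in the N642H line and 1 at 1 in the WT line. Untreated STAT5B then had 2 regions at 2 genes (N642H) and 0 at 0 (WT). For overlaps, lists cut to equal length gave 1 N642H region shared with WT for NR3C1, 2 for untreated STAT5B, 0 treated WT STAT5B regions shared with untreated ones, and 1 treated N642H STAT5B region shared with NR3C1. At −log10 q of at least 5, 1 untreated N642H STAT5B region overlapped WT, and 0 treated WT regions overlapped untreated ones. Asking for 50% of the shorter region also gave 0 for treated against untreated WT. Counting summits within 500 bp gave 2 treated STAT5B regions shared with untreated ones in each line, because it joins the separate regions of the distal CXCR4 site. Depth limits absences: the lowest pileup called was 6 to 8 fragments by list, and more was needed where the background was high.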

Other observations

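On the far side of CXCR4, beyond the 50 kb limit, NR3C1 had a pair of strong regions in the N642H line that no other list overlapped. One lay 62427 bp from CXCR4 (chromosome 2, 136051758 to 136052080) with fold 37.2, 80 fragments over a background of 1.18, and rank 124 of 2888. The other lay 64772 bp away (136049391 to 136049910) with fold 30.6, 85 fragments over 1.81, and rank 137. By rank they were stronger than every NR3C1 region of the N642H line at the 9 genes apart from the distal CXCR4 site. SELPLG had NR3C1 in both lines farther out, inside CORO1C, at 94666 bp in the N642H line (fold 14.3) and 94676 bp in the WT line (fold 8.997).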
